A study of Mus musculus with 4 samples.

Results

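The 7 loci tied to ribosomal RNA and to the RNA of RNase MRP described here in mouse T-helper 2 (Th2) cells are CT010467.1, Gm42418, Lars2, Gm23935, Mir6236, Ccdc107 and Rmrp. They make up 7 of the 50600 genes in the count tables. They were chosen from the counts themselves, by how their counts move together over libraries and by their weight in the library totals, so the levels and ranges below are a description and carry no test. CT010467.1 stood first among all genes in each of the 4 libraries and held 9.95% ± 5.93 (SD, n = 4) of all counts, while Rmrp had 4 counts in total. Counts of the 6 members with a mean count of at least 20 were highest in the library labelled replicate 2.

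The study measured RNA in primary Th2 cells of C57BL/6NJ mice, with 4 libraries labelled as biological replicates 1 to 4 of a single group, and the names in the file headers place them at 0 hours. All 4 carry the same donor identifier, sex was not collected, age is given as unknown, and nothing states whether the libraries came from separate mice, so the spread between them may be partly technical. The assay is labelled total RNA, whereas the linked library protocol is named for poly(A)+ RNA, so the selection of RNA is not settled by the labels. There is 1 group and no treatment contrast.

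Library totals were between 1452053 and 2351916 counts, and a gene with no count could still have up to 3, which is between 1.28 and 2.07 counts per 1000000 (CPM). Intervals and such limits cover counting error only. All 8 T cell markers had a mean of at least 1 TPM (counts per exon length scaled to a sum of 1000000), against 21.6% of all genes. Their summed level was 294, 473, 320 and 337 CPM in replicates 1 to 4. The B cell markers Ms4a1, Pax5 and Cd79b, the macrophage markers Lyz2 and Adgre1, the NK cell markers Ncr1, Klrb1c and Gzma and the erythroid genes Hba-a1 and Hbb-bs had no count. Of the lists, 2 of 6 B cell, 3 of 6 macrophage, 2 of 6 NK and cytotoxic and 2 of 5 erythroid markers reached that level, with summed ranges over libraries of 59.2 to 72.3, 302 to 392, 0.469 to 8.95 and 12.8 to 40.04 CPM. Csf1r, of the macrophage list, had 346 ± 41.7 CPM, more than any T cell marker, and overlaps exons of Hmgxb3 on the opposite strand. Cd79a and Ighm, of the B cell list, had 37.6 ± 4.71 and 28.2 ± 8.77 CPM. Counting used 1 strand, and mt-Nd6, encoded on the mitochondrial strand opposite to most mitochondrial mRNAs, had 16076 ± 1763 CPM (n = 4) against 467 ± 159 for mt-Co1. The sources used here do not give the strand orientation of the library kit, so a count is read below only as a fragment assigned to a gene's annotated strand. With a kit whose first read is the complement of the RNA, setting 1 would place fragments on the strand opposite to their RNA, and the shares of CT010467.1 against Gm42418 and of Ccdc107 against Rmrp would refer to exchanged strands. The levels of all other genes, the marker and pathway lists included, would then also be of the strand opposite to their RNA. CT010467.1, whose annotated strand is the complement of the ribosomal RNA, had a mean of 99507 CPM, and Gm42418 opposite it had 256. Mean counts were 1503, 1410.5 and 2261.8 for the opposite-strand genes Junos, Bach2os and Gimap1os. Jun, Bach2 and Gimap1 had 54.5, 51 and 700.8. Sp3os and Zfp335os were lower than their partners, at 87.5 and 63.75 against 138 for Sp3 and 900.5 for Zfp335. These pairs are examples, and others were not compared. Which orientation holds was not tested. One split of the libraries was seen outside the members: Tsix, the antisense partner of the X inactivation RNA Xist, had 3096 and 3163 counts in replicates 1 and 2 and 2 and 1 in replicates 3 and 4.

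Ribosomal RNA is transcribed by RNA polymerase I from repeated genes as a long precursor that is cut and modified in the nucleolus into the 18S, 5.8S and 28S rRNAs, and it is the most abundant RNA of most cells. RNase MRP is a ribonucleoprotein enzyme whose RNA subunit, encoded by Rmrp and made by RNA polymerase III, takes part in cutting that precursor. It shares most of its protein subunits with RNase P, which trims the 5′ ends of tRNA precursors. Most copies of the rRNA repeat are not placed on the reference chromosomes, and single rRNA-like stretches lie elsewhere in the genome.

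The sequences show how the loci overlap. CT010467.1 is annotated as rRNA on the minus strand of mm10 chromosome 17, from 39846353 to 39848827, with 3 exons and 2466 exon bases. RefSeq (GRCm38.p6) names the same place Rn18s-rs5, an 18S rRNA-related pseudogene, from 39846354 to 39848202. The start of the 1849-base transcript of CT010467.1 (chr17:39847962-39848201, minus strand, GENCODE M21 on GRCm38) is shown with the bases it shares with AY036118 in capitals, followed by the plus-strand reading of its first 24 bases (chr17:39848178-39848201), which reads as the 3′ end of 18S rRNA.
CT010467.1: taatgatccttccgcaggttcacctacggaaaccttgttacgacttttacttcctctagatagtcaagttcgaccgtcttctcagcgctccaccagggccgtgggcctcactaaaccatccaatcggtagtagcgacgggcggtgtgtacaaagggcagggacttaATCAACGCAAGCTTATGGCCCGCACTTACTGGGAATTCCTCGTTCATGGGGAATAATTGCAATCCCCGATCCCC
plus strand: ggtgaacctgcggaaggatcatta

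CT010467.1 as annotated is therefore the complement of the 18S rRNA sequence, and Gm42418 on the plus strand reads in the direction of the rRNA. Gm42418 is a lincRNA of 1 exon at 39846958 to 39848788. Of its 1831 bases, 1822 lie opposite CT010467.1 exons, which is 99.5% of Gm42418 and 73.9% of CT010467.1. AY036118, a lincRNA of 923 bases, lies wholly inside CT010467.1 on the same strand.

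Rmrp is annotated as a ribozyme on the minus strand of chromosome 4. Its sequence (chr4:43492788-43493058, minus strand, GRCm38) is shown because 124 of its 271 bases, in capitals, are the complement of the first exon of Ccdc107 (chr4:43492900-43493023).
Rmrp: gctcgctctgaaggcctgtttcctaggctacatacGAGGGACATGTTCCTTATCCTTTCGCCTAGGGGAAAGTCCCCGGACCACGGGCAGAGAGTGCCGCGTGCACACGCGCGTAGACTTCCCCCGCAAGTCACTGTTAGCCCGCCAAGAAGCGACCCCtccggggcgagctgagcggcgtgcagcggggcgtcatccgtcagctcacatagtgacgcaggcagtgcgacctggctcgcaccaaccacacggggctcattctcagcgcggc

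The capitals are bases 36 to 159 of Rmrp, counted from its 5′ end. They make up 45.8% of Rmrp and 8.02% of the 1547 exon bases of Ccdc107. Ccdc107, which encodes a coiled-coil domain protein, runs on the plus strand from 43492900 to 43495921 with 5 exons. Upstream of the start that RefSeq gives for Ccdc107, and on the far side of the Rmrp start, lies the window below (chr4:43493115-43493339, plus strand, RefSeq GRCm38.p6), with the octamer ATGCAAAT, a motif known from small nuclear RNA promoters, in capitals.
Ccdc107 promoter: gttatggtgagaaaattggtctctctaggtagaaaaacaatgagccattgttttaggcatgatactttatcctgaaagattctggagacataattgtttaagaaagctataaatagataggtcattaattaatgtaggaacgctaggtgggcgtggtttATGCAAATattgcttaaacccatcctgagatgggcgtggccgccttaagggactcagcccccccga

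RefSeq starts Ccdc107 at 43493340, which is 282 bases from the Rmrp start, so its model of the gene does not overlap Rmrp as the GENCODE model does. The octamer, searched on both strands, was found 1 time in this window, 216 bases from the Rmrp start. Of 32851 RefSeq promoter windows, 1.74% held it. These were searched over their full length, which for Ccdc107 is 300 bases, longer than the 225 bases printed and searched here. The match is a description of letters and not of a site in use.

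**Figure D1:**
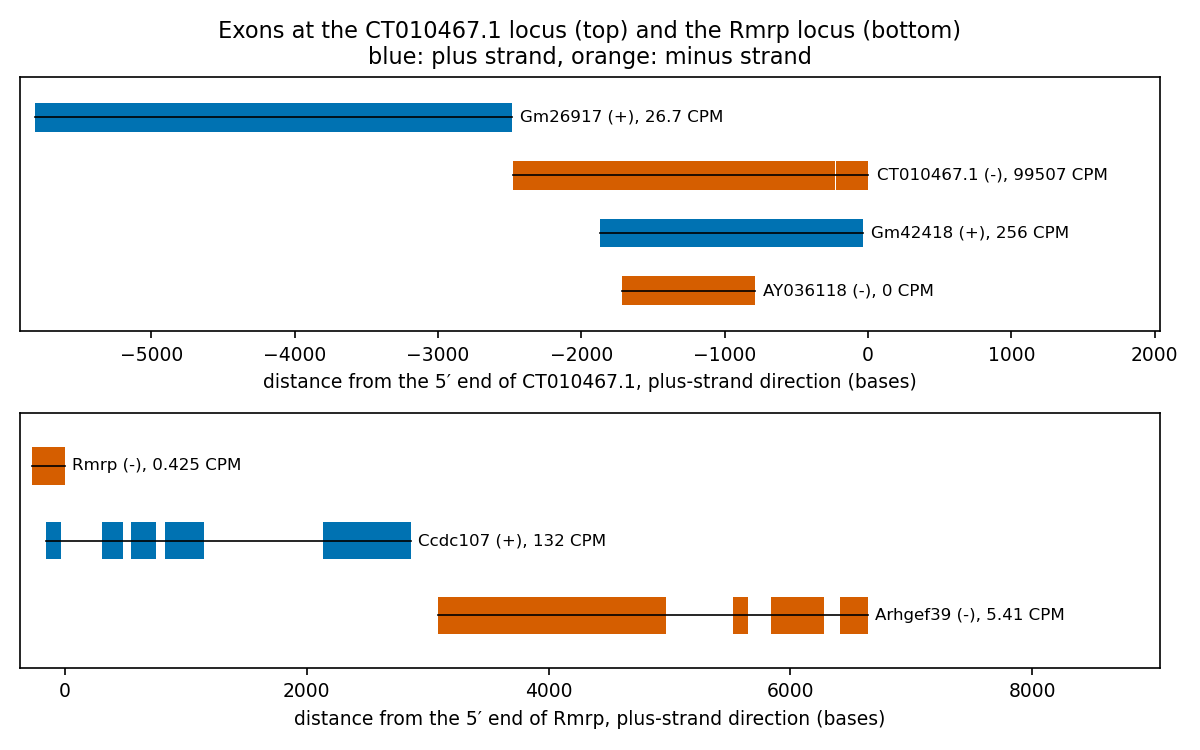
Exons at the CT010467.1 locus (top) and the Rmrp locus (bottom), as bars along the distance in bases from the 5′ end of CT010467.1 or Rmrp, counted in the plus-strand direction, with each gene's mean CPM over the 4 libraries. In both overlapping pairs 1 gene held nearly all counts: CT010467.1 over Gm42418 at the first, and Ccdc107 over Rmrp at the second.

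The short members are shown because near copies exist for one and not the other. Gm23935 (chr16:11144125-11144181, plus strand) is a gene of type miRNA with 57 bases and lies within an intron of Zc3h7a, which is on the opposite strand. Its sequence was found again, base for base, in Gm24270 and Gm24245, while the copies below differ at the bases in capitals. Positions are counted from the 5′ end, with the base of Gm23935 first: G11A in Gm24187 (chr13:9834469-9834525, minus strand), and G2T, C16G, G21T and G48T in Gm23388 (chr8:85112012-85112068, minus strand).
Gm23935: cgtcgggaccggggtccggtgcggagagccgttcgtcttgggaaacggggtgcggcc
Gm24187: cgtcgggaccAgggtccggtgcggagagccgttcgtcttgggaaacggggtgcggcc
Gm23388: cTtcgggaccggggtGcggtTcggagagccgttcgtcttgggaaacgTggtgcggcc

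Mir6236 (chr9:110281287-110281409, plus strand) is an miRNA gene of 123 bases. Its mature form from RefSeq (GRCm38.p6) is shown with its seed, bases 2 to 8, in capitals.
mmu-miR-6236: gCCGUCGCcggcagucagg

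None of the other entries among 1738 mature miRNAs in the RefSeq table had this seed (0 found). A search of the GENCODE M21 transcripts with blastn found 5 other genes for Gm23935 and 0 for Mir6236. The 5 relatives of Gm23935 had 1 count among them, in Gm24245 in replicate 2. Such copies can share fragments, and fragments with several alignments were not counted, so the counts of Gm23935 may leave fragments out. The place of origin of those counted is also uncertain.

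Lars2, the mitochondrial leucyl-tRNA synthetase, runs on the plus strand of chromosome 9 from 123366927 to 123462666 with 19 exons and 11089 exon bases, and no other gene overlaps it. Its transcript of 3894 bases matched 6 other genes in part. One stretch of 72 bases in its 3′ UTR, 370 bases after the stop codon, was 98.6% identical to Gm15564, another locus listed with rRNA fragments. Its first 30 bases (chr9:123462048-123462077, plus strand) are shown.
Lars2: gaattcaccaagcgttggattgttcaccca

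Gm15564 had 4, 7, 1 and 0 counts in replicates 1 to 4. AA474408, which matched Lars2 over 97 bases at 94.8% identity, had 29, 26, 30 and 14. Neither of these genes, which were picked from the sequence search, had the order of libraries seen in Lars2. GC content was 73.7% for Gm23935, 64.2% for Rmrp, 60.2% for Gm42418, 56.1% for Mir6236, 55.4% for the long CT010467.1 transcript and 51.2% for the long Lars2 transcript, each above the median of 49.2% over all transcripts.

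CT010467.1 had 147001, 395152, 66792 and 183413 counts in replicates 1, 2, 3 and 4. These are 6.90%, 16.8%, 3.47% and 12.6% of the counts of each library, so that replicate 2 was highest and replicate 3 lowest, 4.84-fold apart. The next gene in each library was mt-Nd6, which CT010467.1 exceeded 4.17-, 12.4-, 1.98- and 7.56-fold. The mt-Nd6 level itself ranged over 1.30-fold. Per exon length CT010467.1 reached 61933 ± 38607 TPM, or 6.19% ± 3.86 of the length-scaled total. Without replicate 3 its range over libraries was 2.44-fold.

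AY036118, the gene inside it, had 0 counts in all 4 libraries. The counting command names neither the option to count a fragment for several overlapping genes nor the option to count fragments with several alignments. A fragment within both genes is then assigned to neither, so the 0 of AY036118 was fixed by the annotation. Of the CT010467.1 exon bases, 1543 lie outside AY036118, and over these its counts came to 95.3, 256, 43.3 and 119 per base in replicates 1 to 4. The other 353 genes annotated as rRNA together had 133, 94.4, 151 and 141 CPM in replicates 1 to 4. They were lowest in replicate 2, where CT010467.1 was highest, and ranged over 1.60-fold. CT010467.1, as part of the total, itself lowers the CPM of other genes most in that library.

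Gm42418, in the direction of the rRNA at the same locus, had 262, 1351, 154 and 360 counts, or 123, 574, 80.1 and 248 CPM in replicates 1 to 4. The order of libraries was that of CT010467.1, and the range was 7.17-fold. For every 1000 counts of CT010467.1 there were 1.78, 3.42, 2.31 and 1.96 counts of Gm42418 (2.37 ± 0.734, n = 4), so a small part of the counts in every library was assigned to the strand annotated in the rRNA direction. That ratio ranged over 1.92-fold, less than the range of either gene. Gm26917, the plus-strand lincRNA that ends 11 bases from CT010467.1, had 16, 111, 59 and 31 counts, again highest in replicate 2.

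**Figure D2:**
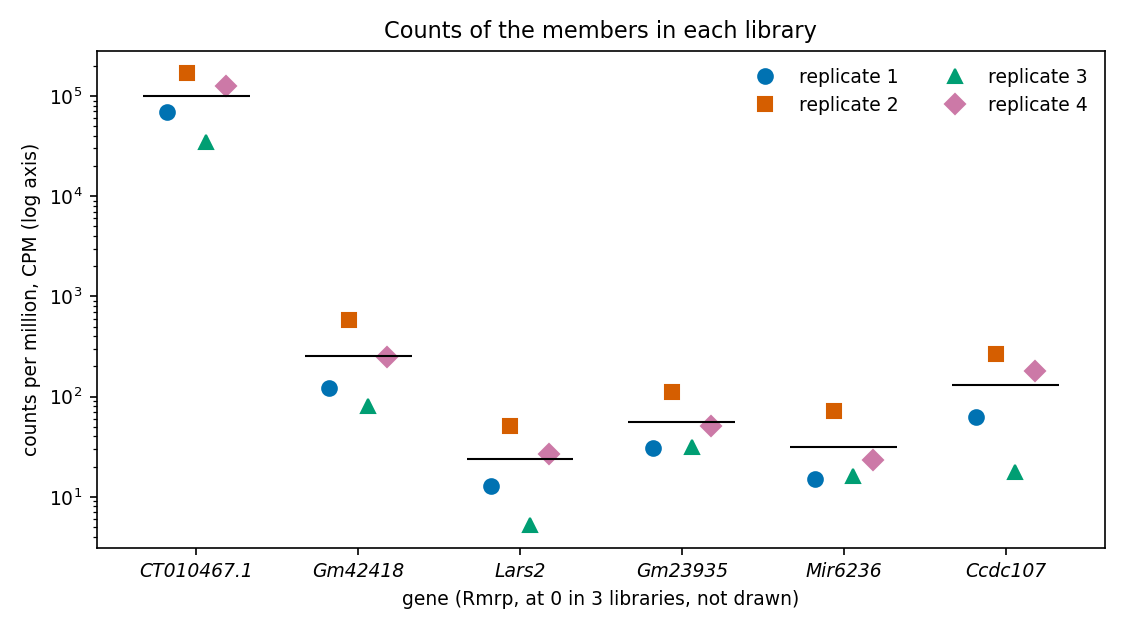
CPM on a log axis of 6 members in each library (marker shape and colour), with the mean over 4 libraries as a line. Replicate 2 is highest for each of the 6, and replicate 3 is lowest for CT010467.1, Gm42418, Lars2 and Ccdc107.

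Lars2 had 27, 119, 10 and 39 counts, or 12.7, 50.6, 5.20 and 26.9 CPM in replicates 1 to 4. Replicate 2 was again highest and replicate 3 lowest, 9.73-fold apart. Leaving out replicate 2 lowered the range to 5.17-fold, and leaving out replicate 3 lowered it to 3.99-fold. There were 0.184, 0.301, 0.150 and 0.213 counts of Lars2 per 1000 of CT010467.1, a 2.01-fold range. Per length Lars2 was low, at 3.32 ± 2.88 TPM. Its nearest neighbour Limd1, a LIM domain protein gene 16039 bases away, had 11, 14, 12 and 5 counts, a 1.81-fold range in CPM.

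Gm23935 had 66, 263, 61 and 74 counts, or 31.0, 112, 31.7 and 50.96 CPM. Replicate 2 stood above the other 3 libraries. Replicates 1 and 3 could not be ordered, with exact 95% binomial intervals of 23.95 to 39.4 and 24.3 to 40.7 CPM. Its range was 3.61-fold and fell to 1.65-fold without replicate 2. Zc3h7a, a zinc finger protein gene whose intron holds Gm23935, had 33, 86, 45 and 24 counts, also highest in replicate 2, and Txndc11, the next gene, had 71, 53, 20 and 8.

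Mir6236 had 32, 170, 31 and 34 counts, or 15.01, 72.3, 16.1 and 23.4 CPM. Replicate 2 stood apart from the other 3, whose intervals overlap, and the 4.81-fold range fell to 1.56-fold without it. Its nearest annotated gene, Gm42775, lies 7542 bases away and had 0 counts. The other 2200 genes of type miRNA together had 4676 ± 455 CPM (n = 4), with a range of 1.26-fold and a value of 4220 CPM in replicate 2 against 5297 in replicate 1. Part of that difference comes with the members' share of the totals, which was largest in replicate 2.

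Ccdc107 had 133, 625, 34 and 262 counts, or 62.4, 266, 17.7 and 180 CPM. The 4 libraries stood in the same order as for CT010467.1, and the range of 15.0-fold was the widest of the members. Without replicate 3 it was 4.26-fold. Its ratio to CT010467.1 was 0.905, 1.58, 0.509 and 1.43 counts per 1000, a 3.11-fold range and so wider than that of Gm42418, Lars2, Gm23935 or Mir6236.

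Rmrp, on the other strand, had 0, 4, 0 and 0 counts. The zeros allow up to 1.41, 1.56 and 2.07 CPM in replicates 1, 3 and 4, and the 4 counts in replicate 2 are 1.70 CPM with an exact 95% binomial interval of 0.463 to 4.36. Summed over libraries Ccdc107 had 264 times the counts of Rmrp, a ratio that rests on those 4 counts. Because the tables give 1 sum per gene, they do not show how many Ccdc107 fragments lay in the exon opposite Rmrp. Fragments of Rmrp and Ccdc107 within those 124 bases cannot be told apart without the kit's orientation.

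The 9 neighbours of Rmrp together had 1570, 1379, 1428 and 1387 CPM in replicates 1 to 4, a 1.14-fold range with replicate 2 lowest, and Cd72 made up 870 of the mean of 1441 CPM. Leaving the members out of the totals raised other genes' CPM by 20.4% in replicate 2 and 3.61% in replicate 3. Which library is lowest here therefore depends on the total used. Arhgef39, a gene 220 bases beyond Ccdc107, had 12, 17, 5 and 9 counts, or 5.63, 7.23, 2.60 and 6.20 CPM, which is the order of libraries of Ccdc107 over a narrower 2.78-fold range. Its counts lie under the minimum mean of 20 used for library orders, so nothing is read from that order. Sit1, a T cell transmembrane adaptor gene, had 14, 14, 17 and 6. Creb3 and Cd72, highest per length among the neighbours, had 97.3 ± 4.64 and 384 ± 25.4 TPM. Cd72 overlaps exons of Tesk1 and Creb3 overlaps exons of Tln1, each on the opposite strand.

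Levels compared per length put CT010467.1 first and Gm23935 second at 1522 ± 1087 TPM, followed by Mir6236 at 398 ± 358, Gm42418 at 217 ± 196, Ccdc107 at 131 ± 116, Lars2 at 3.32 ± 2.88 and Rmrp at 2.49 ± 4.97 (n = 4 each). Neighbouring values from Mir6236 to Ccdc107 differ by less than their SD. Gm23935 and Mir6236 are shorter than a usual sequenced fragment, so scaling by their length raises their TPM, and the TPM of Rmrp comes from 1 library. Without replicate 2 the mean levels were 150 CPM for Gm42418 against 256 with it, 14.9 against 23.8 for Lars2, 18.2 against 31.7 for Mir6236, 86.8 against 132 for Ccdc107 and 0 against 0.425 for Rmrp. All 7 members passed a mean of 1 TPM, against the 21.6% of all genes, and since counts chose them nothing is read from that.

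**Figure D3:**
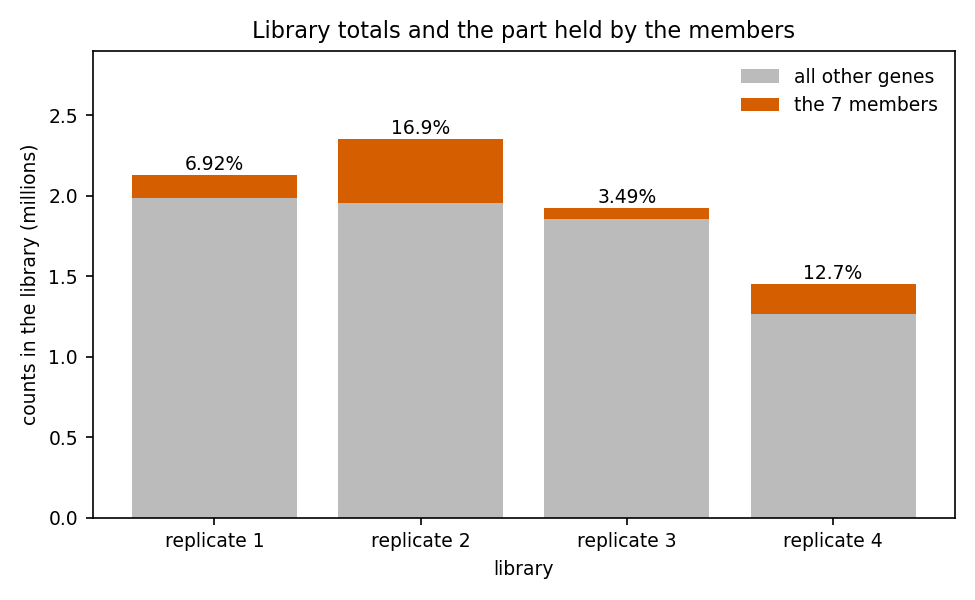
Total counts of each library, split into the 7 members (orange) and all other genes (grey), with the members' percent of the total above each bar. The members held between 3.49% and 16.9% of a library, and replicate 4 stayed the smallest library with or without them.

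The 7 members held 147521, 397684, 67082 and 184182 counts in replicates 1 to 4, or 6.92%, 16.9%, 3.49% and 12.7%. CT010467.1 alone was 99.5% ± 0.123 of these, and the other 6 members held between 0.0151% and 0.108% of a library. Replicate 2 had 428759 counts more than replicate 3, of which 328360, or 76.6%, were counts of CT010467.1. With the members in the total, replicate 2 was 1.22 times as large as replicate 3, and without them it was 1.05 times as large.

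Every other gene's CPM depends on that total. Taking out the members raised the CPM of all other genes by 7.44%, 20.4%, 3.61% and 14.5% in replicates 1 to 4. Between replicates 2 and 3 this is a shift of 0.22 on the log2 scale. TMM scaling, edgeR's trimmed mean of M-values, which sets library sizes from most genes, put replicate 2 at 1.09 times replicate 3 with the members and at 1.11 without them. Mitochondrial genes held 1.78% ± 0.179 of counts.

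The 6 members with a mean count of at least 20 differed in their order of libraries only by replicates 1 and 3. CT010467.1, Gm42418, Lars2 and Ccdc107 stood in the order replicate 3, 1, 4, 2 from low to high, which holds for 2.82% of the 5417 genes with a mean count of at least 20. Gm23935 and Mir6236 had replicate 2 high and replicate 1 nominally lowest, but their intervals for replicates 1 and 3 overlap. These orders do not mark separate profiles. By the likeness measure described below, where a smaller value is closer, Gm42418 was at 0.63 from Mir6236 and at 0.99 from Ccdc107. All 6 were highest in replicate 2, as were 24.5% of the 5417 genes, and all 6 ranged at least 3-fold, as did 7.94%. The median range of the 5417 genes was 1.61-fold. These counts repeat what chose the members and support nothing further.

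The order crossed the split in Tsix. Within replicates 1 and 2, which had Tsix counts, CT010467.1 was 2.44-fold higher in replicate 2. Within replicates 3 and 4 it was 3.64-fold higher in replicate 4, and Ccdc107 was 4.26-fold and 10.2-fold higher in the same pairs. Summed T cell markers were also highest in replicate 2, with a 1.61-fold range, and the part of that or of any other library difference in the members' levels was not tested.

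**Figure D4:**
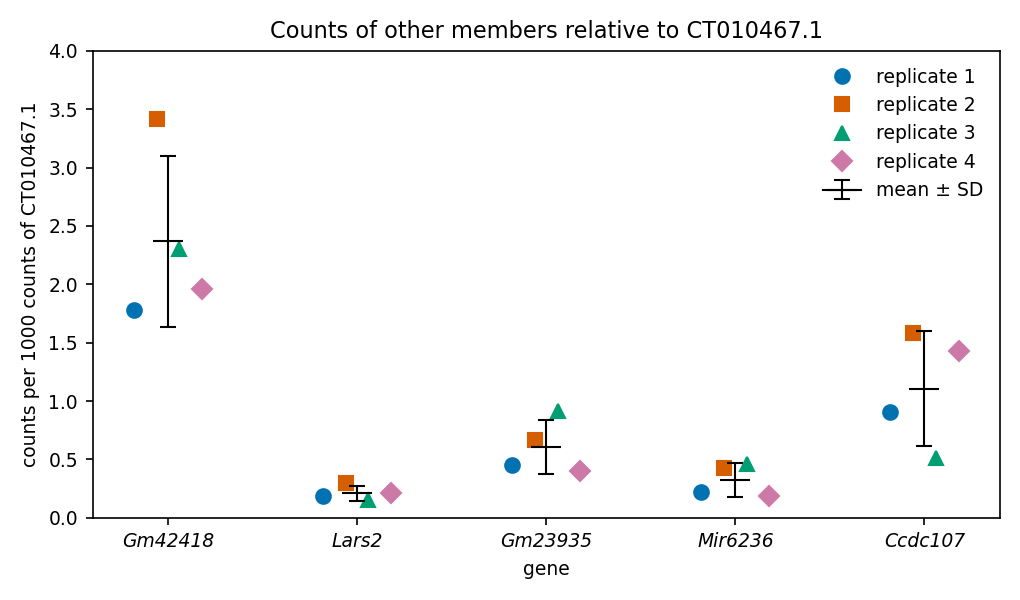
Counts of 5 members per 1000 counts of CT010467.1 in each library, with the mean and SD over 4 libraries. Gm42418 is highest in replicate 2 at 3.42, whereas Gm23935 and Mir6236 are highest in replicate 3, and Ccdc107 is lowest there at 0.509.

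Relative to CT010467.1, Gm23935 had 0.449, 0.666, 0.913 and 0.404 counts per 1000 and Mir6236 had 0.218, 0.430, 0.464 and 0.185 in replicates 1 to 4. Both ratios were highest in replicate 3, the library with the fewest CT010467.1 counts. Their ranges were 2.26-fold and 2.50-fold. On the log2 scale the mean ratios to CT010467.1 were -8.77 ± 0.41 for Gm42418, -12.22 ± 0.40 for Lars2, -10.75 ± 0.54 for Gm23935, -11.69 ± 0.67 for Mir6236 and -9.94 ± 0.74 for Ccdc107 (SD, n = 4).

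Likeness of profile was measured as the largest difference between 2 genes, over the 4 libraries, in log2 CPM centred on each gene's mean, among 3345 genes with a mean count of at least 50. The genes most like CT010467.1 were Saraf at 0.46, Sept6 at 0.47, Gm20735 at 0.51, Rps21 at 0.54 and Adipor2 at 0.57. The members Lars2, under the minimum count, and Gm42418 were at 0.53 and 0.58 from it. Saraf regulates store-operated calcium entry, Sept6 is a septin, Gm20735 a lincRNA, Rps21 a ribosomal protein of the small subunit and Adipor2 an adiponectin receptor. Saraf, for example, had 47, 96, 27 and 45 counts, and the 5 ranged between 2.25- and 3.21-fold, less than CT010467.1.

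Among the members, Gm23935 and Mir6236 were closest to each other at 0.31, and Gm42418 and Lars2 at 0.42. Gm23935 was as close to the large mitochondrial rRNA mt-Rnr2 and to Nisch, an imidazoline-binding protein gene, at 0.33 each. Mir6236 was at 0.41 from the small mitochondrial rRNA mt-Rnr1. The member nearest to Ccdc107 was Lars2 at 0.56. Lars2, with a mean count of 48.75, falls just under the minimum of 50, and among the genes above it Ccdc107 was nearest to CT010467.1 at 0.98 and Gm42418 at 0.99, then to Sept6 at 1.30, Fam196b at 1.37 and Gm20735 at 1.43.

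Rmrp, with a mean count of 1, gave no profile of its own. The 5 genes nominally nearest to it were Mir6236 at 0.59, Gm42418 at 0.74, Gm23935 at 0.90, mt-Rnr1 at 0.98 and Selenop, a selenoprotein gene, at 1.10, all of them highest in replicate 2, the 1 library with Rmrp counts. With 4 libraries no correlation was computed.

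**Figure D5:**
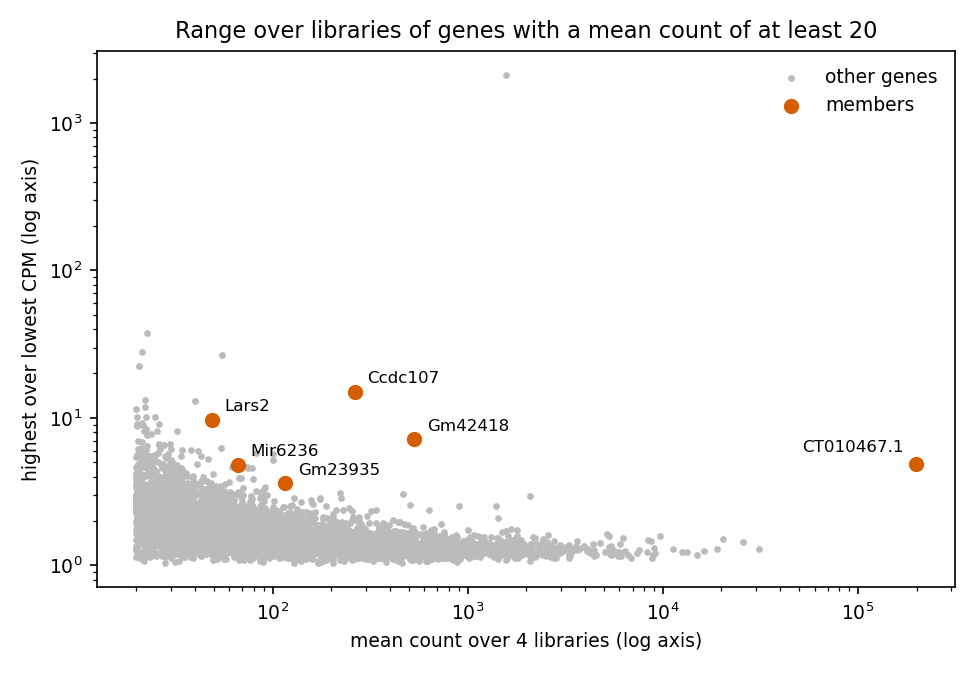
Highest over lowest CPM among the 4 libraries against mean count, both on log axes, for genes with a mean count of at least 20 and no library at 0. The 6 members (orange) range between 3.61- and 15.0-fold, and the grey point at the top is Tsix with 2109-fold.

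The spread of each gene was set against the trend of all genes with edgeR's quasi-likelihood fit and Benjamini-Hochberg adjustment. Of 5755 genes fitted, 16 (0.278%) were more variable than the trend at an adjusted p of 0.05, and 285 at an unadjusted p of 0.05. The 6 members that could be fitted were among the 16, and Rmrp had too few counts to be fitted. Their dispersion was 50.7 times its trend value for Gm42418 (rank 1), 47.9 for Ccdc107 (rank 2), 16.3 for CT010467.1 (rank 4), 9.77 for Gm23935 (rank 9), 8.91 for Lars2 (rank 10) and 8.55 for Mir6236 (rank 12). Because the rule used the same counts, this is a description.

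Genes outside the members among the top 10 did not follow the members' order. Gm20481 had 1348, 2458, 1809 and 2728 counts and mt-Co1, a subunit of cytochrome c oxidase, had 526, 1192, 1201 and 714. Zscan10 had 463, 496, 966 and 622, Gm14966 had 763, 518, 417 and 171, and Srpk2, a kinase of splicing factors, had 1997, 1502, 1526 and 535. Without replicate 2, CT010467.1, Gm42418 and Ccdc107 were the members above the trend. Without replicate 1 they were CT010467.1, Gm42418, Gm23935 and Ccdc107, and without replicate 3 they were Gm42418, Gm23935, Mir6236 and Ccdc107. Without replicate 4 all 6 were. Over all genes fitted, those above the trend were 9 of 5737 without replicate 2 and 7 of 5948 without replicate 1. They were 10 of 6168 without replicate 3 and 8 of 6272 without replicate 4. These calls also use the counts that chose the members and are a description. DESeq2's gene-wise dispersion called 0 genes, and 23 at an unadjusted p of 0.05.

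Genes of the machinery that makes and cuts rRNA were counted beside the members. Their levels are of the annotated strand, with the limit on orientation given above. Of 11 protein subunits of RNase MRP and RNase P, 4 reached a mean of 1 TPM, and Rpp25 and Rpp25l had no count. Pop5 led with 221, 206, 226 and 155 counts and 68.3 ± 6.30 TPM, and Rpp21 followed at 8.39 ± 4.12 TPM. Pop1, the largest shared subunit, had 0, 4, 0 and 0 counts and Pop4 had 1, 4, 0 and 0. Summed over the list there were 116, 103, 126 and 114 CPM in replicates 1 to 4, a 1.22-fold range with replicate 2 lowest. Part of that range comes with the members' share of the totals, which was largest in replicate 2.

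Of 15 genes of RNA polymerase I and its initiation factors, 14 reached 1 TPM, and the sum was 234 ± 44.1 CPM. Cd3eap, an RNA polymerase I subunit gene that overlaps exons of Ercc1 on the opposite strand, had 40.95 ± 9.08 TPM, and Ubtf, which binds the rRNA gene promoter, had 13.4 ± 2.74. Polr1a and Polr1b, the largest subunits of the enzyme, had 2.25 ± 0.514 and 1.25 ± 0.483 TPM. The sum was highest in replicate 3, where CT010467.1 was lowest, with a 1.55-fold range.

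All 20 rRNA processing factors reached 1 TPM, with a sum of 665 ± 65.1 CPM and a 1.23-fold range, highest in replicate 2 at 737 CPM as CT010467.1 was. Rrp9, a U3 snoRNP protein, had 72.3 ± 9.11 TPM and Npm1, nucleophosmin, 71.3 ± 10.7. Fbl, the rRNA methyltransferase fibrillarin, had 7.75 ± 2.34 TPM and Nop56, of the same box C/D particles, 4.73 ± 1.66. None of these lists had a gene above the trend (0 of 1, 0 of 5 and 0 of 15 fitted).

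Of a list of 9 other small RNA genes of RNA polymerase III, 3 reached 1 TPM. Rpph1, the RNA of RNase P, had 0, 1, 0 and 2 counts, and Rn7sk, the 7SK RNA, had 0, 7, 0 and 0. The 5S rRNA gene n-R5s25 had 4, 0, 10 and 2, or 26.3 ± 27.2 TPM, and the other 6 had none. Fragments with several alignments were not counted, so a 0 at a gene with near copies is not read as absence. Outside the list, the 5S rRNA genes n-R5s183, n-R5s202 and n-R5s29 had mean counts of 42, 37.75 and 27, above the mean of 1 for Rmrp. The 7 counts of Rn7sk and the 4 of Rmrp all fell in replicate 2.

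Lars2 was set beside 19 other aminoacyl-tRNA synthetase genes with a mitochondrial role or a cytosolic relative in the list, of which 13 reached 1 TPM. Their sum was 418, 409, 448 and 300 CPM in replicates 1 to 4, with replicate 4 lowest. Hars2 had 35.1 ± 3.13 TPM, Iars2 16.7 ± 2.35 and Mars2 14.5 ± 5.67, while Aars2 had 0.574 ± 0.446 and Cars2 0.686 ± 0.453. Iars2 and Hars2 overlap exons of Rab3gap2 and Hars on the opposite strand. None of the 5 fitted was above the trend, as is the case for most genes.

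Of 9 further loci known to collect rRNA fragments, 6 had no count, and the sum of 9.38, 51.9, 31.2 and 21.4 CPM in replicates 1 to 4 came mostly from Gm26917. The mitochondrial rRNA genes mt-Rnr1, with 26, 134, 40 and 47 counts, and mt-Rnr2, with 61, 172, 56 and 61, were both highest in replicate 2. Their sum ranged over 3.19-fold, and neither was above the trend after adjustment. Their median dispersion was still 4.93 times its trend value, against a median of 0.769 over all genes fitted. For the 1 fitted gene of the other loci it was 5.57.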

How the data were processed

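RNA was measured in 4 libraries of Th2 cells. The deposited files give raw counts of fragments per gene. Per the file headers, the authors counted them with featureCounts 1.4.6-p4 on STAR alignments to mm10, over exons of GENCODE M13, with both ends aligned and strand setting 1. The deposited exon length served for TPM. Symbols matched 50376 of 50600 gene IDs, and gene types and transcripts came from GENCODE M21, on the same build. CPM was taken over all genes. Ratios of genes used a pseudocount of 0.5 counts on the log2 scale. Spread was fitted with edgeR 4.0.16 in R 4.3.3 (filterByExpr, TMM, intercept-only, quasi-dispersion against its prior, upper tail), checked on simulated counts, with DESeq2 1.42.0 as an alternative. Sequences were searched with blastn 2.17.0 (word size 11, expected value 0.0001). Members and lists were chosen with earlier results of these data known. Named genes were the members, their opposite and nearest genes, the 5 most like CT010467.1 and Rmrp, the first 2 and the 2 highest by TPM of each list, and the 10 most variable. Tsix, Rpp25, Rpp25l, Csf1r, Cd79a, Ighm, the other 5S rRNA genes, the genes found by sequence and those nearest to Ccdc107, Gm23935 and Mir6236 were named after their values were seen. So were the example pairs of genes on opposite strands. A few marker genes and 1 sequence are not reported here.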

Additional observations from a re-analysis of the deposited data

Results flagged for a closer look

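In 2 of 27 values examined for a library apart from the other 3, the criterion picked out replicate 2. Chance alone marks about 1 in 20 independent values, but these values are not independent. Both picked out are levels of members, which were chosen from the same counts, so the number is a description only. The level of Mir6236 was 72.3 CPM in replicate 2 against 15.01, 16.1 and 23.4 in replicates 1, 3 and 4, and the gap to the nearest library was 0.853 of the whole range. The level of Rmrp was 1.70 CPM in replicate 2, from 4 counts, and 0 in the others. With the others at 0 any value would have met the criterion, and the interval of 0.463 to 4.36 CPM overlaps the limits of 1.41 to 2.07 that the zeros allow, so a difference was not detectable at this depth.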

How the results depend on the processing

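There is 1 group, so no call between groups could change, and no result reversed. No paired analysis was possible because there is 1 group. All 56 recomputed CPM values moved by less than 1 SD. For the means with 1 library left out this was fixed in advance, since such a mean cannot move by 1 SD, and nothing is read from it. The SDs are also close to the means, and leaving out replicate 2 lowered 5 of the 7 mean levels by over 1.5 times. Of 42 recomputed ranges, 34 stayed within 1.5 times the value given. Those that did not came from leaving out replicate 2 or 3: CT010467.1 2.44 (without 3), Gm42418 3.10 (without 2) and 4.67 (without 3), Lars2 5.17 and 3.99, Gm23935 1.65 (without 2), Mir6236 1.56 (without 2) and Ccdc107 4.26 (without 3). The members' share of counts was 7.70% to 12.2% with 1 library left out and 0.0580% without CT010467.1. Per exon length the log2 ratios to CT010467.1 were -8.34 for Gm42418, -14.39 for Lars2, -5.32 for Gm23935 and -7.36 for Mir6236, and 5.07 for Ccdc107 to Rmrp, which follows from the lengths. Genes more variable than the trend numbered 16, 8 without the 7 members, 7 to 10 with 1 library left out and 0 with DESeq2 (the cause was not tested). No filter gave 16, of which 10 were shared. At 5 TPM, the detected genes were 2 for RNase MRP and RNase P, 3 for RNA polymerase I, 10 for rRNA processing, 1 for RNA polymerase III genes, 4 for synthetases and 1 for loci collecting rRNA fragments. The ratio of Ccdc107 to CT010467.1 and the likeness to Ccdc107 were added after the data were seen. At this depth Rmrp was at 0 in 3 libraries.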
